A study of Mus musculus with 2 samples.

Results

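Cycling macrophages of mouse skin are described here: cell barcodes that carried macrophage transcripts together with transcripts of dividing cells. Of 8367 barcodes in the count matrix, 126 were chosen. A barcode had to hold at least 200 genes, at most 20% mitochondrial counts, at least 10 unique molecular identifiers (UMIs, each a counted transcript) summed over C1qa, C1qb, C1qc, Mrc1 and Adgre1, at most 5 UMIs of the fibroblast gene Dcn and at most 5 of the keratinocyte genes Krt5 and Krt14 together. These gates left 1020 macrophage-gated barcodes. Of these, 126 (12.4%, 95% exact Clopper-Pearson interval 10.4 to 14.5) had at least 5 UMIs summed over the 4 rule genes Mki67, Top2a, Cenpf and Birc5 and are called cycling. The other 894 had fewer than 5 and are called non-cycling. Members were thus chosen by the measured UMIs of the 4 rule genes and the 5 gate genes, and the levels of those genes are given as a description.

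The skin came from C57BL/6 mice of 8 weeks, some of them controls and others depleted of neutrophils at steady state with 1A8, a monoclonal antibody to Ly6G that was given on 2 days in a row. The tissue was digested with Liberase and DNAseII, cells of both conditions were marked with hashtag antibodies, and all were pooled into 1 RNA library. The series asks what neutrophil depletion changes in skin. The matrix holds 0 hashtag rows and no condition in its barcode names, so every value below mixes control and depleted animals, and the number of animals is not given in the sources used here. With 1 library there is no replicate and no test. Intervals are exact at 95% and cover counting error only, and ratios are of cycling over non-cycling barcodes. Levels are in CPM, the UMIs of a gene per 1000000 UMIs summed over a set, so a lower level and a larger total of other RNA per cell cannot be told apart.

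Macrophages are tissue phagocytes that can keep their numbers up by dividing in place as well as by recruitment of blood monocytes. In mouse skin, macrophages near vessels are known for Lyve1, Folr2 and CD209-family lectins, while others carry much MHC class II and the monocyte chemokine receptor Ccr2. A dividing cell first licenses and copies its DNA, with MCM helicases, polymerases and nucleotide enzymes, and then condenses and separates its chromosomes, with cyclin B and CDK1, kinetochores and spindle motors. E2F factors drive the replication genes, and the MuvB complex with B-MYB and FOXM1 drives the mitosis genes through CHR elements, often beside CCAAT boxes bound by NF-Y. CSF1 acting on Csf1r is a main growth signal of macrophages, and in mouse macrophages the transcription factor Maf is known to restrain self-renewal.

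The gated barcodes carried a myeloid transcript that the gate did not use and that is not particular to macrophages. Lyz2, lysozyme, reached a lowest, median and highest count of 2, 136 and 469 UMIs per cycling barcode, against 0, 81 and 568 per non-cycling barcode. Of the gate genes, Mrc1, the mannose receptor, had 1, 10 and 63 UMIs per cycling barcode, against 0, 8.5 and 71 per non-cycling barcode. Langerhans cell markers summed to 0.855 CPM in cycling and 1.31 CPM in non-cycling barcodes, and erythrocyte markers to 0.428 and 0.327 CPM. The tissue label is skin, and no position in dermis or epidermis was measured. Neutrophil markers were at 7.27 CPM in cycling barcodes, where 4 of 7 had no UMI, and at 114 CPM in non-cycling barcodes, with at most 4 UMIs in a cycling and 219 UMIs in a non-cycling barcode. Dendritic cell markers, of the type closest to macrophages, were at 142 CPM in cycling and 167 CPM in non-cycling barcodes, and 3 or more of the 7 were seen in 9 cycling and 31 non-cycling barcodes. All 15 core macrophage genes had a ratio below 1, and Lyz2 had a log2 ratio of -0.32, so its higher count per cycling barcode is no higher level. Others of the 15 were seen in fewer barcodes than Lyz2. Fcgr1, an Fc receptor, had a UMI in 20 cycling and 349 non-cycling barcodes, and Mertk in 32 and 318. At least 3 markers of some other cell type were seen in 32 of 126 cycling and 154 of 894 non-cycling barcodes, most often fibroblast markers, in 20 and 61 barcodes. The part of these transcripts in the results was not tested. Doublet calls covered 4 cycling barcodes (3.17%) and 17 non-cycling ones (1.90%).

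A few barcodes stood apart. Muscle markers had 4158 UMIs in 2 cycling barcodes and 70 UMIs in the other 124. Immunoglobulin kappa, Igkc, had 3693 of its 3706 non-cycling UMIs in 1 barcode. All ratios were also computed without these 3 barcodes, and genes that rest on them are named as such. Cycling barcodes were deeper, with 2337879 UMIs in all against 9164377 in non-cycling barcodes. The median barcode held 17728 UMIs (3971 to 46791) and 4147.5 genes in the cycling set, against 9644 UMIs (804 to 35673) and 2825.5 genes in the non-cycling set. Median mitochondrial shares were 2.23% and 2.25%. The rule counts UMIs without scaling, so a deeper barcode can pass it more easily, and more transcripts per cell and more complete capture cannot be told apart. With a threshold of 5 rule UMIs per 10000, 118 barcodes (11.6%) were cycling. In barcodes of 8000 to 16000 UMIs, 36 of 442 were, which is 8.14% (the window below), at median depths of 12132 UMIs in cycling and 11457 UMIs in non-cycling barcodes.

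The 4 rule genes came together in most members. Mki67, which coats mitotic chromosomes, had a lowest, median and highest count of 0, 6 and 23 UMIs per cycling barcode. Top2a, the topoisomerase that untangles DNA, had 0, 10 and 38 UMIs. Birc5, survivin of the chromosomal passenger complex, had 0, 5 and 20 UMIs, and Cenpf, a kinetochore protein, 0, 1 and 20 UMIs. No non-cycling barcode held more than 3 UMIs of any of them. All 4 genes were seen in 77 cycling barcodes, 3 in 36, 2 in 12 and 1 in 1, and Top2a was the most abundant of the 4, ties included, in 81. The summed level was 374 CPM of Mki67 in cycling and 9.28 CPM in non-cycling barcodes, 560 and 11.5 CPM of Top2a, 124 and 0.873 CPM of Cenpf, and 339 and 5.35 CPM of Birc5. By the GRCm38 annotation Mki67 lies at chr7:135689784-135716450, Top2a at chr11:98992947-99024199, Cenpf at chr1:189640606-189688107 and Birc5 at chr11:117849237-117855743.

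The limit of 5 UMIs cut through a gradual range. Rule UMIs had a median of 24 in members, with 27 members at 5 to 9 UMIs, 51 at 10 to 29 and 48 at 30 or more. Just inside the limit, 5 barcodes had exactly 5 rule UMIs, with 19.7 replication UMIs and 22.3 mitosis UMIs per 10000. Just outside it, 8 barcodes had exactly 4, with 42.6 replication UMIs and 31.0 mitosis UMIs per 10000. The 31 non-cycling barcodes with 3 or 4 rule UMIs held 32.1 replication UMIs per 10000 (30.5 to 33.7), against 9.39 (9.17 to 9.62) in the 745 with none. The non-cycling set therefore holds some barcodes with the replication level of members.

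**Figure D1:**
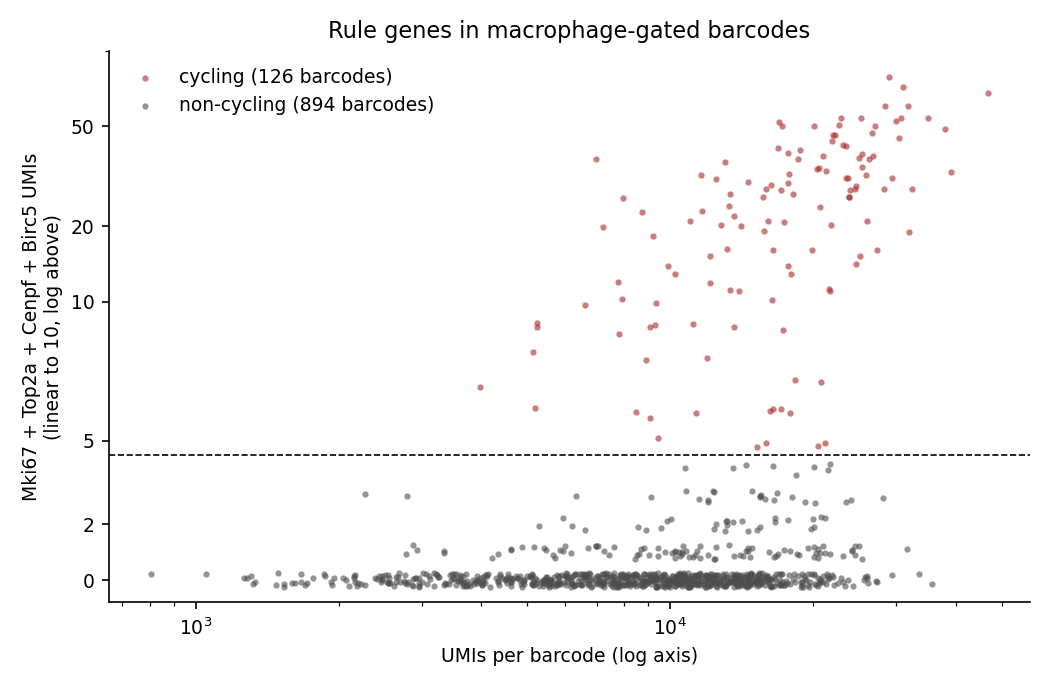
Each point is a macrophage-gated barcode, with its total UMIs on a log axis and its summed Mki67, Top2a, Cenpf and Birc5 UMIs on an axis that is linear to 10 and logarithmic above, jittered slightly. The dashed line is the limit of 5 UMIs: 126 cycling barcodes lie above it at a median of 17728 UMIs, and 745 of the 894 non-cycling barcodes lie at 0 rule UMIs.

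Barcodes outside the gates also carried the rule genes. Of 280 barcodes with at least 5 rule UMIs, 154 were not macrophage-gated, and 80 of those passed the Dcn and keratin limits with fewer than 10 gate UMIs, 45 of them with 5 to 9. The share at 5 rule UMIs was 12.4% (10.4 to 14.5) in macrophage-gated barcodes, at a median of 10307 UMIs. It was 3.90% (2.85 to 5.20) in keratinocyte-gated barcodes, at a median of 10801 UMIs, and 0.431% (0.247 to 0.700) in fibroblast-gated barcodes, at a median of 11584 UMIs. After each barcode was thinned to 3000 UMIs, Top2a had a UMI in 76.2% of cycling, 2.44% of non-cycling and 0.556% of fibroblast-gated barcodes. Before thinning it had one in 96.8% of cycling and 9.06% of non-cycling barcodes. Thinning kept all 126 cycling barcodes and left out 74 non-cycling ones.

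Genes of DNA replication and mitosis outside the rule were higher in the cycling barcodes almost throughout. Among 9775 genes with at least 50 UMIs over both sets, 582 (5.95%) were at least 2-fold higher in cycling barcodes and 628 (6.42%) were at 0.5-fold or lower, with a median log2 ratio of -0.01. Of the 249 measured genes of the 15 cell cycle lists, 209 were among the 582. In the replication lists 51 of 62 genes passed 2-fold, and in the mitosis lists 102 of 108, with median log2 ratios of 1.63 and 3.88. The choice of members by 4 mitosis genes fixes much of this direction, so the counts describe the members and support nothing further.

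Genes that license and fire replication origins were all above 2-fold, 19 of 19, with a median log2 ratio of 1.89. Mcm5, a subunit of the MCM helicase, had a lowest, median and highest count of 0, 2 and 11 UMIs per cycling barcode, against 0, 0 and 9 per non-cycling barcode, which is 118 and 32.5 CPM and a ratio of 3.63 (3.07 to 4.29). Cdc45, which joins the helicase when origins fire, was at 23.5 and 2.18 CPM, and Gmnn, geminin, which blocks relicensing, at 99.7 and 22.8 CPM. At the fork 23 of 25 genes passed. Pcna, the sliding clamp, was already present outside the cycling set, with a median of 5 UMIs per cycling and 1 UMI per non-cycling barcode, 381 and 138 CPM, and a ratio of 2.76 (2.53 to 3.01). Clspn, claspin of the fork checkpoint, was at 60.7 and 3.71 CPM, a ratio of 16.4 (11.2 to 24.6), and Pola1, the catalytic subunit of polymerase alpha, at 147 and 34.9 CPM.

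The nucleotide enzymes divided. Of 18 genes, 9 passed 2-fold and all 18 were above 1. Rrm2, the regulated subunit of ribonucleotide reductase, was at 129 CPM in cycling and 3.27 CPM in non-cycling barcodes, a ratio of 39.3 (27.0 to 59.3). Tk1, thymidine kinase, was at 105 and 3.49 CPM, and Tyms, thymidylate synthase, at 93.2 and 7.75 CPM. Rrm1, the large reductase subunit, differed less, at 174 and 21.5 CPM. Dck, deoxycytidine kinase of nucleoside salvage, stood at 136 and 83.6 CPM, a ratio of 1.62 (1.42 to 1.85), and at 2.92-fold (2.32 to 3.66) in the window.

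Chromatin proteins were among the most abundant cell cycle transcripts. H2afz, histone H2A.Z, had a lowest, median and highest count of 0, 39 and 126 UMIs per cycling barcode, against 0, 5 and 46 per non-cycling barcode, and levels of 2144 and 680 CPM. Hmgb2, a DNA-bending protein, was at 1092 and 117 CPM, and Hmgb1 at 840 and 255 CPM. Asf1b, the histone chaperone of replication, was at 16.7-fold (12.3 to 23.1), and Uhrf1, which carries DNA methylation across replication, at 87.7 and 11.3 CPM. All 15 genes of this list passed 2-fold. Of 67 replication-dependent histone genes 19 were measured, and 16 of those were at least 2-fold higher and 2 were at 0.5-fold or lower. Hist1h1b, a linker histone, was at 254 and 1.86 CPM, and Hist1h2ae at 231 and 4.36 CPM. These genes are near-identical copies whose reads counting may split, and their transcripts lack the usual poly(A) tail, so their levels are uncertain.

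Mitosis genes had a higher median log2 ratio, 3.88, than replication genes, 1.63. The members were chosen by 4 mitosis genes, so this order follows at least in part from the rule. Cdk1, the mitotic kinase, was at 145 CPM in cycling and 6.00 CPM in non-cycling barcodes, a ratio of 24.2 (18.2 to 32.8), and Ccna2, cyclin A, at 134 and 1.64 CPM. Plk1, a kinase of mitotic entry, had 113 UMIs in the cycling set and 2 in the non-cycling set, a ratio of 221 (59.9 to 1851). Ube2c, the ubiquitin enzyme of the anaphase-promoting complex, had 0, 5 and 42 UMIs as lowest, median and highest count per cycling barcode, against 0, 0 and 4 per non-cycling barcode. Bub1, the checkpoint kinase, was at 64.6 and 0.655 CPM, Cenpe, the kinetochore motor, at 99.7 and 3.27 CPM, and Aurkb, the passenger complex kinase, at 109 and 7.31 CPM. Kif11, the motor that separates spindle poles, was at 124 and 1.53 CPM. Smc2, of condensin, was at 251 and 21.4 CPM, and Stag1, of cohesin, at 197 and 149 CPM, below 2-fold. Anln, anillin of the cleavage furrow, was at 83.0 and 2.07 CPM, and all 9 cytokinesis genes passed 2-fold. Tubb5 and Tuba1b, tubulins that non-dividing cells also use, were at 1554 and 350 CPM and at 1183 and 278 CPM.

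Upstream regulators differed among themselves. Foxm1 (29.1-fold), E2f8 (11.8-fold) and Mybl2, which encodes B-MYB (10.2-fold), were higher in cycling barcodes, while the retinoblastoma gene Rb1 was at 86.4 CPM in cycling and 98.0 CPM in non-cycling barcodes, 0.882-fold. Of the 9 G1 genes 3 passed 2-fold. The E cyclins Ccne1 and Ccne2 were at 21.8 and 3.27 CPM and at 21.0 and 3.16 CPM. The D cyclins, which link growth signals to the cycle, did not reach 2-fold: Ccnd1 was at 102 CPM in cycling and 136 CPM in non-cycling barcodes, Ccnd2 at 37.6 and 62.0 CPM and Ccnd3 at 132 and 109 CPM. Myc, a growth regulator, was at 11.5 and 10.6 CPM, a ratio of 1.09 (0.685 to 1.69). Among inhibitors of CDK, Cdkn2c, p18, was at 72.7 and 9.17 CPM, 7.93-fold, and Cdkn2d, p19, at 86.4 and 23.2 CPM. Cdkn1a, p21, was at 277 and 266 CPM and Cdkn1b, p27, at 29.5 and 30.6 CPM.

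**Figure D2:**
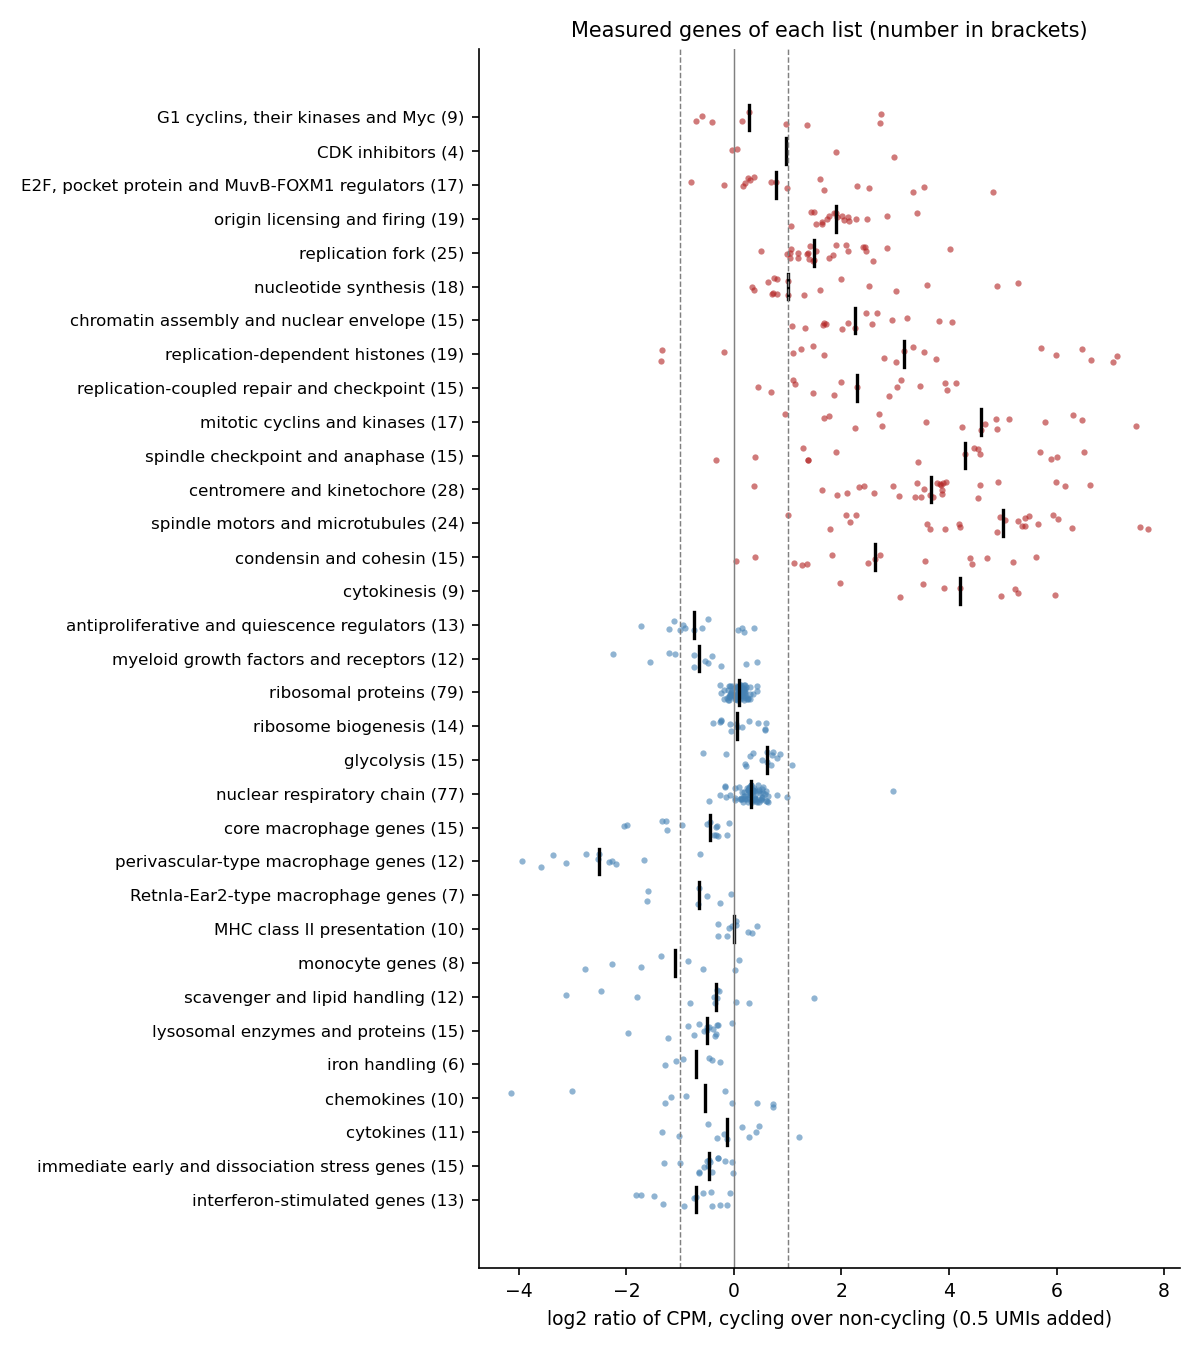
Each point is 1 measured gene of a list, with its log2 ratio of CPM in cycling over non-cycling barcodes on the horizontal axis and 0.5 UMIs added to each count. Bars are list medians, dashed lines mark 2-fold, cell cycle lists are red and the others blue: the median is 3.67 for kinetochore genes and -2.52 for perivascular-type macrophage genes.

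Members differed in how much replication and how much mitosis transcript they carried. Replication UMIs per 10000 had a lowest, median and highest value of 6.12, 33.2 and 119 in cycling barcodes, against 0, 7.96 and 105 in non-cycling ones. Mitosis UMIs per 10000, counted without the 4 rule genes and without the widely used tubulins and Stmn1, were 14.6, 84.2 and 254 in cycling barcodes, against 0, 12.02 and 119 in non-cycling ones. The sets overlapped far more in replication than in mitosis. At or above the lower quartile of the cycling barcodes lay 79 non-cycling barcodes for replication and 2 for mitosis. At or above the cycling median for replication lay 40, and 12 of those had 0 rule UMIs. The 4 rule genes are mitosis genes, so the rule itself selects non-cycling barcodes that are low in mitosis transcripts. The smaller overlap in mitosis follows at least in part from the rule and is no result. Over the 126 members, the Spearman correlation of the 2 levels was 0.018, and that of depth with the mitosis share was 0.066. Both describe barcodes of 1 library.

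**Figure D3:**
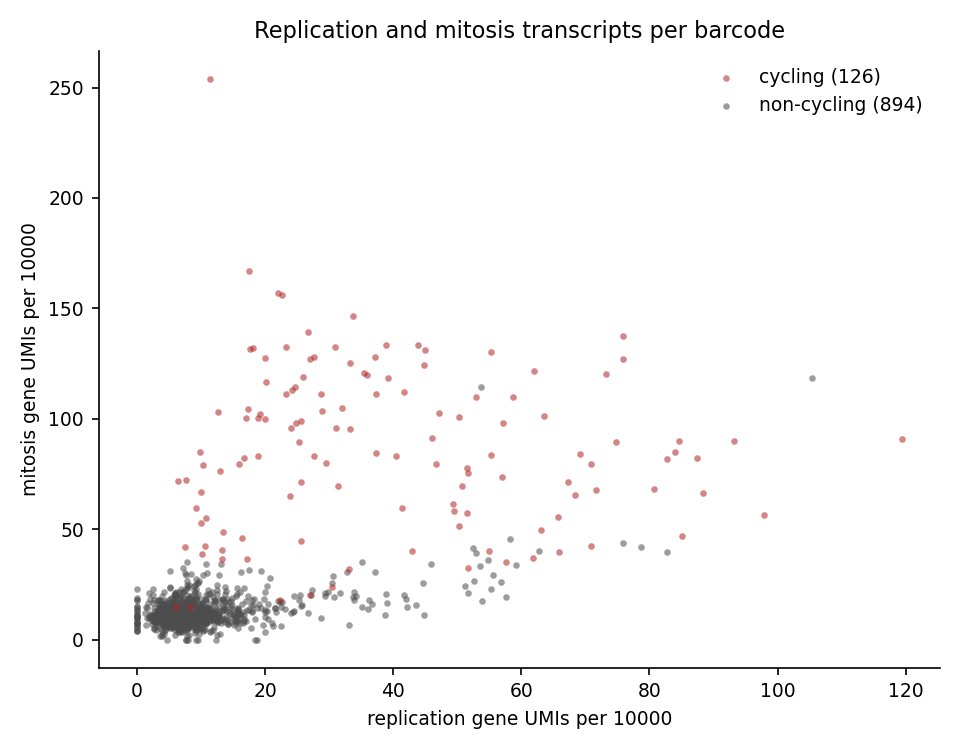
Each point is a macrophage-gated barcode, with replication UMIs per 10000 on the horizontal axis and mitosis UMIs per 10000 on the vertical axis. The 126 cycling barcodes have medians of 33.2 and 84.2, and a row of non-cycling barcodes extends along the replication axis at low mitosis values.

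Mitosis UMIs made up a median of 73.4% (35.5 to 95.7) of replication and mitosis UMIs in a member. The share was under 50% in 23 members, 50 to 75% in 46 and 75% or more in 57, a division of a continuous range that leaves 50 members within 5 points of a limit. Median depths were 16444, 17779.5 and 18757 UMIs in that order. The members were sorted by these same list genes, so the direction of each replication or mitosis gene over the 3 groups follows from the sorting and is no result. Mcm5 was at 248, 133 and 57.2 CPM in the same order and Pcna at 791, 490 and 134 CPM. Histone UMIs per 10000 were highest in the middle, at 3.81, 17.4 and 11.3. Plk1 was at 7.68, 30.1 and 79.1 CPM. Ccnb1, cyclin B, and Cdc20, the anaphase activator, both chosen after their values were seen, were at 20.5, 24.5 and 102 CPM and at 5.12, 25.6 and 94.3 CPM. The rule genes moved too, with Cenpf at 25.6, 74.7 and 203 CPM, so a member low in mitosis genes had fewer rule UMIs, at medians of 9, 25 and 30. The macrophage genes followed here differed with no common direction: Folr2 was at 43.5, 99.2 and 71.5 CPM, Ccr2 at 824, 742 and 877 CPM, Cd74 at 9464, 10218 and 10798 CPM, and Retnla at 14121, 14608 and 10917 CPM.

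The promoters of the 4 rule genes, of 2 further mitosis genes and of 2 replication genes are shown because their letters hold the motifs named above. Each sequence is the 250 bases before the RefSeq start (GRCm38.p6), 5′ to 3′ on the gene's strand. Capitals mark CCAAT, the 2 forms TTTGAA and TTTAAA of the CHR, and the 2 E2F forms TTTCGCGC and TTTGGCGC, each searched on both strands. The 4 rule genes, Ccnb1 and Cdk1 read as follows.
Mki67 chr7:135716380-135716629, minus strand: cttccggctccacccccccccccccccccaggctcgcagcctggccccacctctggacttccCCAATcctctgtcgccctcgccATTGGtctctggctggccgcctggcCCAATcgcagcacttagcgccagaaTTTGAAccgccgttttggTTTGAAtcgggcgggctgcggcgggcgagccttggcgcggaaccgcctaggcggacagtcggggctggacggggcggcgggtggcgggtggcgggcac
Top2a chr11:99024190-99024439, minus strand: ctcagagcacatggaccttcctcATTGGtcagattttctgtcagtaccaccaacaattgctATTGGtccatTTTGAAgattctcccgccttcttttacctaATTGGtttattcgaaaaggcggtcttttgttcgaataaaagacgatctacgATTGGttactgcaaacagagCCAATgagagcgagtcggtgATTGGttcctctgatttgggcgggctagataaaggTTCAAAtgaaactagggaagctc
Cenpf chr1:189688087-189688336, minus strand: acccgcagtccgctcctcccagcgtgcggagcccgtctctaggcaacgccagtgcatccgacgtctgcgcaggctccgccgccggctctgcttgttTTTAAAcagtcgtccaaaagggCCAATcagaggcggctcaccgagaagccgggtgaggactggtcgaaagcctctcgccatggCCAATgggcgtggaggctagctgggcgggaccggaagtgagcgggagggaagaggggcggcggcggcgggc
Birc5 chr11:117848987-117849236, plus strand: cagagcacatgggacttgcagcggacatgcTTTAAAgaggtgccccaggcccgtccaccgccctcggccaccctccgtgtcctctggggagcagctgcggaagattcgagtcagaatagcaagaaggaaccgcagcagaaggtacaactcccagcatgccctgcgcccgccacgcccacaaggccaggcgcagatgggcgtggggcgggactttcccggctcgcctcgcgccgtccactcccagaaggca
Ccnb1 chr13:100786487-100786736, minus strand: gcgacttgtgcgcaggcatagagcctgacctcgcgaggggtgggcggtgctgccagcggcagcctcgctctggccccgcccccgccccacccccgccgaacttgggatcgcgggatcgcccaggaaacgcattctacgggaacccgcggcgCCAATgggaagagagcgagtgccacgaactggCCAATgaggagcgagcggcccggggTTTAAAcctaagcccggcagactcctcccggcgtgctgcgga
Cdk1 chr10:69352913-69353162, minus strand: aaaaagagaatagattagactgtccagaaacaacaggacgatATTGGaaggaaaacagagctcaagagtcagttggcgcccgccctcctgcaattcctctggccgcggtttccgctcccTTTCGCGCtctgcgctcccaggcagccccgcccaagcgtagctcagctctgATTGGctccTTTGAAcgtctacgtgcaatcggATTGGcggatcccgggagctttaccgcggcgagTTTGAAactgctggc
Mcm5 and Mcm6, replication helicase genes (Mcm6 was chosen after its value was seen, at 86.8 CPM in cycling and 25.5 CPM in non-cycling barcodes), read as follows.
Mcm5 chr8:75109259-75109508, plus strand: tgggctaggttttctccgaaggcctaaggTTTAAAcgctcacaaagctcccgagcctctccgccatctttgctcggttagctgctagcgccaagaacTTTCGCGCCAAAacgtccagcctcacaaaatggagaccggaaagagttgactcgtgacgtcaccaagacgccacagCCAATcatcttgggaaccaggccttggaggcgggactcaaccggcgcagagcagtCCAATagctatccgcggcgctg
Mcm6 chr1:128359706-128359955, minus strand: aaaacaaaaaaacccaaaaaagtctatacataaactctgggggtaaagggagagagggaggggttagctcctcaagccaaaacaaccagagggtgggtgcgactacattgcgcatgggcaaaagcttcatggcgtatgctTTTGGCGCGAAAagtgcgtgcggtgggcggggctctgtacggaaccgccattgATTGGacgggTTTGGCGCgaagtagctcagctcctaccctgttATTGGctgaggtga
Top2a held 6 CCAAT matches and Ccnb1 a CCAAT at 67 bases and a TTTAAA at 42 bases before the start, while Birc5 held a single TTTAAA at 220 bases. The Mcm5 and Mcm6 windows held 2 and 3 E2F matches, with an overlapping pair in each. The starts of all windows are those of RefSeq. For Mki67, Top2a and Cenpf the GENCODE gene reaches further, to 135716450, 99024199 and 189688107, so part of each window lies inside it. The Birc5 window ends just before its GENCODE gene. For the other genes the starts were not compared with GENCODE, and all distances hold for the RefSeq start only. The strand of the Mcm5 and Mcm6 windows also rests on RefSeq alone. No GENCODE transcript of these genes holds any 20-base stretch of the 50 bases after the start, as one does for the other 6. Of 117 genes in the mitosis lists and the rule, 97 had a promoter in the table, with 106 starts. Over 300 bases, from 250 before to 50 after a start, CCAAT was found in 69.8% of mitosis, 50.8% of replication and 37.4% of all 32851 promoters. The CHR letters were found in 61.3%, 23.7% and 27.6%, and the E2F letters in 5.66%, 18.6% and 0.813%. Promoters of the macrophage lists held them in 42.8%, 21.9% and 0.535%. These are matches of letters, and binding was not measured.

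Macrophage genes divided the sets in another way. Among the macrophage lists the lowest median was that of the perivascular type, of which 11 of 12 were at 0.5-fold or lower in cycling barcodes, beside 6.42% of all measured genes, with a median log2 ratio of -2.52. Lyve1, a hyaluronan receptor, had a highest count of 18 UMIs per cycling and 36 UMIs per non-cycling barcode, with medians of 0 in both. A UMI of it was seen in 7.14% of cycling and 29.6% of non-cycling barcodes, and in 2.38%, 22.2% and 0.139% of cycling, non-cycling and fibroblast-gated barcodes once thinned. Its level was 17.1 CPM (12.2 to 23.3) in cycling and 208 CPM (198 to 217) in non-cycling barcodes, a ratio of 0.082 (0.059 to 0.113). Folr2, folate receptor beta, was at 77.4 and 439 CPM, and Cd209f, a lectin, at 38.1 and 332 CPM, with 55 of its 89 cycling UMIs in 1 barcode. Timd4, a receptor for dying cells and a marker of long-lived macrophages, was at 3.42 and 37.3 CPM. Cd163, the haemoglobin scavenger receptor, was at 70.1 and 224 CPM, and Gas6, a bridge to dying cells, at 26.9 and 182 CPM. F13a1, coagulation factor XIII, was the exception, at 956 and 1486 CPM, a ratio of 0.643 (0.615 to 0.673), with a median of 16 UMIs per cycling and 11 UMIs per non-cycling barcode. In the window of 8000 to 16000 UMIs the ratio was 0.057 for Lyve1, 0.162 for Folr2, 0.063 for Cd209f and 0.787 for F13a1.

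The gate genes were lower too, which is a description since they chose the barcodes. C1qa, a chain of complement C1q, was at 537 CPM in cycling and 1938 CPM in non-cycling barcodes, C1qb at 957 and 2182 CPM and C1qc at 337 and 1018 CPM. C1q UMIs per barcode had a median of 8.5 in cycling and 26 in non-cycling barcodes. Mrc1 was at 634 and 1023 CPM and Adgre1 at 215 and 306 CPM. The gate asks for 10 UMIs whatever the depth, so a shallow barcode needs a larger share of them to pass. In the window of matched depth the C1qa ratio was 0.401 (0.359 to 0.447) and that of C1qb 0.539, against 0.277 and 0.439 over all depths. Apoe, the lipid carrier, which the gate did not use, had a median of 1 UMI per cycling and 10 UMIs per non-cycling barcode, and levels of 491 and 4289 CPM, a ratio of 0.115 (0.108 to 0.122). Trem2, a lipid receptor, was at 9.41 and 53.4 CPM, 0.176-fold, or 0.315-fold in the window, and Fcgr1, the high-affinity Fc receptor, at 24.8 and 104 CPM. Of the 15 core macrophage genes, 5 were at 0.5-fold or lower, beside 6.42% of all measured genes. Among the 5 was Mertk, a receptor for dying cells, at 18.4 and 74.1 CPM. In the window Lgmn was at 0.630-fold and Pf4 at 0.634-fold, so both left that count. Fcgr1, at 0.324-fold, and Mertk, at 0.296-fold, stayed in it.

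MHC class II genes differed less, and how much depended on depth. None of 10 measured genes passed 2-fold either way, with a median log2 ratio of 0.00. H2-Aa, a class II alpha chain, had a lowest, median and highest count of 3, 83 and 227 UMIs per cycling barcode, against 0, 43 and 241 per non-cycling barcode, and levels of 4699 and 4806 CPM. Cd74, the invariant chain, was at 10353 and 11298 CPM. H2-DMa, which loads peptides, was at 885 and 740 CPM. In the window of 8000 to 16000 UMIs the ratio was 0.800 (0.763 to 0.840) for H2-Aa, 0.856 for H2-Ab1, 0.794 for H2-Eb1, 0.782 for Cd74 and 0.954 for H2-DMa. Of these, H2-Ab1 and H2-DMa were above 1 over all depths. H2-DMb1 of the same list stayed above 1 in the window, on 299 cycling and 2396 non-cycling UMIs, so the list did not move as a whole. After thinning, H2-Aa had a UMI in 100% of cycling and 90.4% of non-cycling barcodes, against 5.95% of fibroblast-gated barcodes, which should lack it. Before thinning it had one in 100% of cycling and 91.6% of non-cycling barcodes. No member lacked it, while 75 non-cycling barcodes did.

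**Figure D4:**
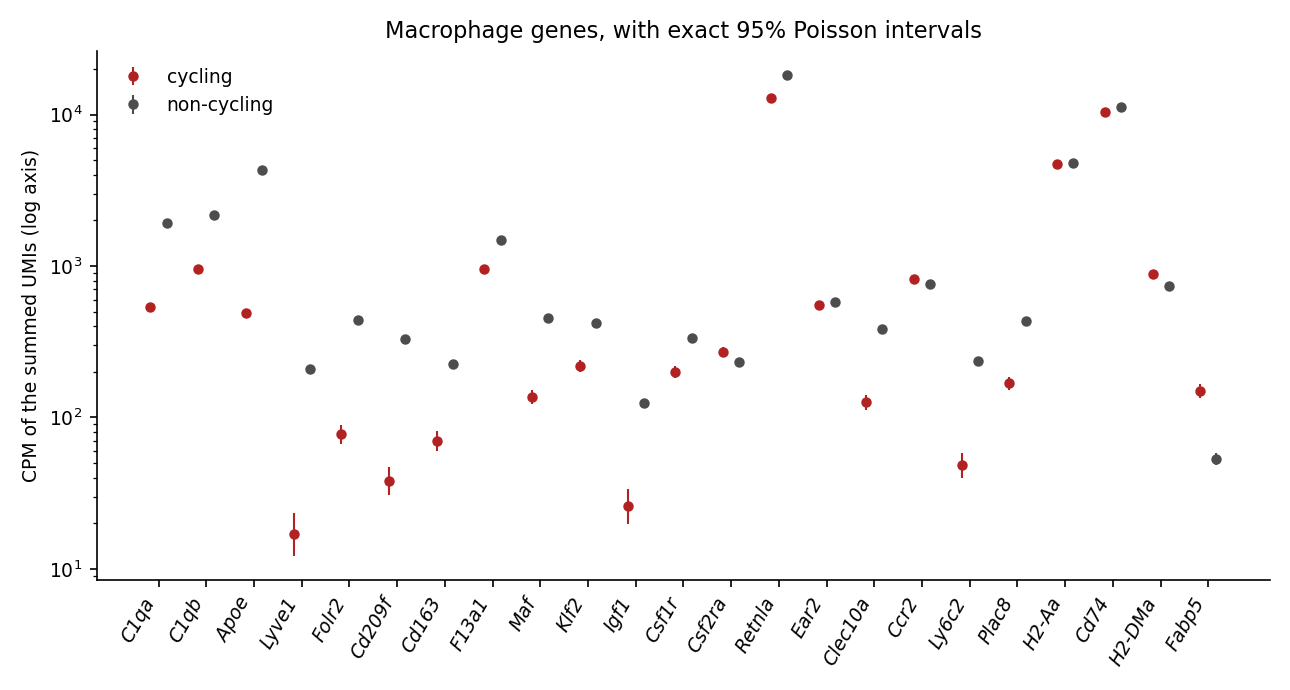
Points are CPM of the summed UMIs on a log axis, cycling barcodes left in red and non-cycling barcodes right in grey, with exact 95% Poisson intervals, most of them smaller than the points. Lyve1 is at 17.1 and 208 CPM and Apoe at 491 and 4289 CPM, while Ccr2 is at 816 and 764 CPM.

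Ccr2, the receptor that brings monocytes into tissue, had a lowest, median and highest count of 0, 13 and 47 UMIs per cycling barcode, against 0, 6 and 40 per non-cycling barcode. Its level was 816 CPM (780 to 854) in cycling and 764 CPM (746 to 782) in non-cycling barcodes. The genes of freshly recruited monocytes were lower, however: Ly6c2, a surface antigen, was at 48.3 and 235 CPM, Plac8 at 169 and 433 CPM and Chil3, a chitinase-like protein, at 0.296-fold. In the list 4 of 8 genes were at 0.5-fold or lower, beside 6.42% of all measured genes. The Ly6c2 UMIs of the cycling set lay in 11 barcodes, and its ratio was 0.206 over all depths and 0.377 in the window. Retnla, a secreted resistin-like protein of alternatively activated macrophages, was the most abundant gene of its list, with medians of 141.5 UMIs per cycling and 98.5 UMIs per non-cycling barcode, and levels of 12870 and 18209 CPM. Ear2, a ribonuclease, was at 553 and 576 CPM, a ratio of 0.960 (0.903 to 1.02), and had a UMI in 90.5% of cycling and 55.5% of non-cycling barcodes, or in 66.7% and 50.9% once thinned, beside 1.25% of fibroblast-gated barcodes. Clec10a, a lectin, was at 126 and 382 CPM and Ccl24, an eosinophil chemokine, at 65.9 and 203 CPM, both below 0.5-fold.

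The cycling share was then read over levels of these genes in counts thinned to 3000 UMIs, with limits chosen after the values were seen. Of the 946 thinned barcodes, 126 (13.3%) were cycling. The share was 17.6% (14.6 to 20.8) of 615 barcodes with none of Lyve1, Folr2 and Cd209f, 11.9% (6.29 to 19.8) of 101 with 1 or 2 and 2.61% (0.963 to 5.59) of 230 with 3 or more. Median depths were 11593, 10266 and 9066 UMIs in that order. Within 8000 to 16000 UMIs the shares were 10.3%, 10.3% and 0.980%, so the top level had 1 cycling barcode of 102 at matched depth. The C1q genes belong to the gate, and a barcode with a low level of them has to pass by Mrc1 and Adgre1 or by depth, so the share over C1q levels is shaped by the gate and is a description. By C1q UMIs it was 22.5% at 0, 22.3% at 1 to 4, 9.49% at 5 to 19 and 4.92% at 20 or more, and at matched depth 13 of 118 barcodes, 14.5%, 4.17% and 4.83%. Median depths over those levels were 13541, 12993, 8902 and 9627 UMIs. By Ly6c2, Chil3 and Plac8 together it was 16.6% at 0 and 4.49% at 3 or more, and at matched depth 9.52% and 1.39%.

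By class II genes the share was highest in the middle. It was 0.641% (0.016 to 3.52) with fewer than 10 UMIs of H2-Aa, H2-Ab1 and H2-Eb1 per 3000, 19.7% (16.1 to 23.6) with 10 to 49 and 10.5% (7.43 to 14.3) with 50 or more. At matched depth these were 1.56%, 13.8% and 3.57%. The level with fewer than 10 held 156 barcodes and 1 cycling one, of which 120 barcodes, with that 1, also had 3 or more UMIs of Lyve1, Folr2 and Cd209f, the perivascular-type UMIs below. With at least 10 class II UMIs, the share was 4.55% (1.49 to 10.3) of 110 barcodes with 3 or more perivascular-type UMIs and 17.6% (14.9 to 20.7) of 680 with fewer. By Ccr2 the share was 6.94% at 0, 16.3% at 1 or 2 and 14.8% at 3 or more, and at matched depth 3.88%, 9.20% and 9.66%. Class II-bearing barcodes with no perivascular-type and no monocyte UMI held 94 members, 74.6% of the cycling set, against 44.3% of the 820 thinned non-cycling barcodes. Of these members, 75 had under 5 C1q UMIs per 3000, 59.5% of the cycling set against 27.6% of the 820. The other 19 had 5 or more, 15.1% against 16.7%. C1q belongs to the gate, so this split is a description. Whether members low in C1q are macrophages or dendritic cells was not tested.

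**Figure D5:**
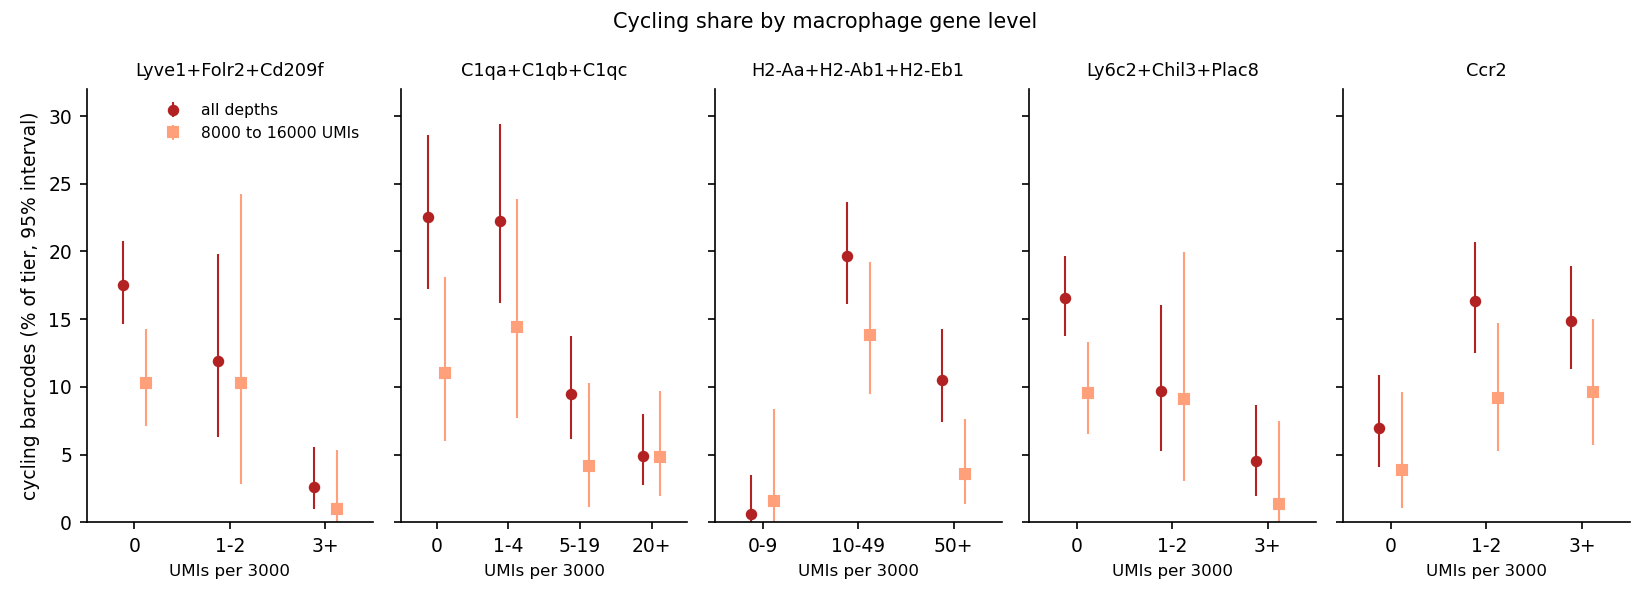
Points are the percentage of macrophage-gated barcodes that are cycling at each level of a gene group in counts thinned to 3000 UMIs, with exact 95% intervals, at all depths (circles) and in barcodes of 8000 to 16000 UMIs (squares). The share is 17.6% without and 2.61% with 3 or more Lyve1, Folr2 and Cd209f UMIs, and 0.641% in barcodes with fewer than 10 class II UMIs, while the C1q panel shows gate genes.

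Genes known to restrain division were lower in part. Of 13 antiproliferative genes, 4 were at 0.5-fold or lower and 0 above 2-fold. This stands beside 6.42% of all measured genes and 49 of 188 genes over the macrophage lists at 0.5-fold or lower, so the count does not set this list apart. Maf had a lowest, median and highest count of 0, 1 and 28 UMIs per cycling barcode, against 0, 2 and 40 per non-cycling barcode, and levels of 137 and 455 CPM, a ratio of 0.301 (0.268 to 0.337). In the matched window the ratio was 0.418 for Maf. Klf2, a quiescence factor, was at 218 and 419 CPM, and Klf4, which restrains growth and acts in monocyte development, at 279 and 424 CPM. Txnip, a brake on glucose uptake, was at 130 and 281 CPM, and Foxo3 at 34.2 and 69.1 CPM. In the window Txnip was at 0.677-fold, Foxo3 at 0.536-fold and Klf2 at 0.685-fold, so Txnip and Foxo3 left the count above. Btg1, an antiproliferative factor, was at 731 and 695 CPM, and Foxo1 at 59.9 and 46.5 CPM. 

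Growth factor receptors showed no gene above 2-fold. Csf1r, the CSF1 receptor, had a median of 3 UMIs per cycling and 2 UMIs per non-cycling barcode, and levels of 201 and 337 CPM, a ratio of 0.596 (0.540 to 0.657). The 2 chains of the GM-CSF receptor stood a little above 1: Csf2ra was at 272 and 234 CPM, a ratio of 1.16 (1.06 to 1.27), and Csf2rb at 134 and 99.5 CPM, a ratio of 1.35 (1.18 to 1.53). Il4ra, the interleukin 4 receptor, was at 28.2 and 41.4 CPM. Igf1, a growth factor of tissue macrophages, was at 26.1 CPM in cycling and 125 CPM in non-cycling barcodes, a ratio of 0.208 (0.158 to 0.270), its receptor Igf1r at 37.6 and 87.6 CPM, and Tgfbr2 at 38.1 and 113 CPM. These 3 and Csf2 were the 4 of 12 at 0.5-fold or lower, beside 6.42% of all measured genes. In the window of 8000 to 16000 UMIs Igf1r was at 0.632-fold and Csf2 at 2.63-fold (0.973 to 6.14), so both left that count and Csf2 changed direction. Csf2 rests on 8 cycling UMIs, 7 of them in 1 barcode.

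Growth-related genes differed less. None of 79 ribosomal protein genes passed 2-fold, with a median log2 ratio of 0.09 and 154168 CPM in cycling against 145657 CPM in non-cycling barcodes. None of 14 ribosome biogenesis genes did either: Npm1, nucleophosmin, was at 753 and 553 CPM. Glycolysis genes had a median log2 ratio of 0.61, with 13 of 15 above 1. Gapdh was at 1202 and 740 CPM, a ratio of 1.62 (1.55 to 1.70), and Pgam1 at 250 and 138 CPM. Aldoa, an aldolase, passed 2-fold at 512 and 243 CPM, with 324 of its 1197 cycling UMIs in 1 barcode, and its log2 ratio was 0.24 without the 2 muscle-rich barcodes and the Igkc-rich one. In the window the ratio was 1.09 for Aldoa and 1.32 for Gapdh, but 2.00 (1.66 to 2.40) for Pgk1 of the same list and 1.96 (1.59 to 2.39) for Pgam1. Of ribosome biogenesis, Npm1 was at 1.23-fold and Nop58 at 2.02-fold (1.36 to 2.91) there. Of the nuclear respiratory chain 71 of 77 genes were above 1, with a median log2 ratio of 0.32. Only Cox6a2, a muscle form with 62 cycling UMIs in 3 barcodes, passed 2-fold among these 77, and its log2 ratio was -2.38 without the 2 muscle-rich barcodes and the Igkc-rich one. Fabp5, a fatty acid carrier, passed 2-fold at 149 and 53.1 CPM, a ratio of 2.81 (2.44 to 3.23), and was at 2.96-fold in the window.

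Secreted mediators went both ways. Of 10 chemokines 4 were at 0.5-fold or lower, beside 6.42% of all measured genes. Ccl8 and Ccl7, which attract monocytes, were at 59.0 and 476 CPM and at 86.8 and 213 CPM. Ccl12 was at 2.14 and 41.6 CPM and Ccl3 at 45.8 and 103 CPM. Of the 138 cycling UMIs of Ccl8, 115 were in 1 barcode, and the ratio was 0.014 in the window. Ccl2, the main Ccr2 ligand, was at 511 and 381 CPM, 1.34-fold, and at 2.27-fold (2.01 to 2.55) in the window of 8000 to 16000 UMIs. Of its 1194 cycling UMIs, 202 were in 1 barcode, and the cycling level without them was 424 CPM. The window holds 36 cycling barcodes, and its interval does not cover differences between them. Cxcl10, an interferon-induced chemokine, was at 175 and 107 CPM, and Cxcl2, a neutrophil chemokine, at 1554 and 1603 CPM. Il1b was at 737 and 532 CPM, a ratio of 1.39 (1.31 to 1.46), but stood at 0.620-fold (0.522 to 0.733) in the window of 8000 to 16000 UMIs, in the other direction. Il6 passed 2-fold at 73.6 and 31.6 CPM, a ratio of 2.32 (1.91 to 2.82), but was at 1.56-fold (0.909 to 2.53) in the window. Il10, the anti-inflammatory cytokine, was at 16.3 and 33.3 CPM, with 1 cycling UMI in the window, and Pdgfb, a platelet-derived growth factor chain, at 6.42 and 16.8 CPM. Il7r, from the lymphoid marker list, was at 63.3 and 30.3 CPM, a ratio of 2.09 (1.70 to 2.56), which was below 2-fold without the same barcodes, while T cell markers together were at 18.8 and 69.3 CPM.

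Interferon-stimulated genes were below 1, with a median log2 ratio of -0.70. Of the 13, 4 were at 0.5-fold or below, beside 6.42% of all measured genes. Ifit1 and Ifit3, 2 of these 4, came below 2-fold in the window and left that count. Ifit2, an antiviral protein, was at 0.297-fold, or 0.469-fold in the window, and Isg15 at 207 and 276 CPM. Immediate early genes, which digestion of tissue is known to raise, had a median log2 ratio of -0.46, with Egr1 at 138 and 342 CPM and Fos at 513 and 809 CPM. Of 15 lysosomal genes 2 were at 0.5-fold or lower, beside 6.42% of all measured genes. They were the cathepsins Ctsb, at 775 and 1808 CPM, and Ctsl, at 53.5 and 211 CPM, while Psap, prosaposin, was at 2777 and 2864 CPM. Among iron genes, Hmox1, haem oxygenase, was at 237 and 460 CPM, and Tfrc, the transferrin receptor, at 13.3 and 32.8 CPM, 0.404-fold, or 0.757-fold (0.355 to 1.43) in the window. Over the 188 measured genes of these macrophage lists, without the ribosomal and respiratory chain genes, 3 were at least 2-fold higher and 49 at 0.5-fold or lower, beside 5.95% and 6.42% of all genes.

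Outside the lists, the highest ratios belonged to further cell cycle genes and to muscle genes. Pclaf, a PCNA-binding factor, had 0, 6 and 28 UMIs as lowest, median and highest count per cycling barcode, against 0, 0 and 7 per non-cycling barcode, and levels of 434 and 10.4 CPM, a ratio of 41.8 (33.9 to 52.2). Pimreg, a mitotic regulator, was at 36.4 and 0.109 CPM on 85 and 1 UMIs. Cdca3, a mitotic entry factor, was at 118 and 2.18 CPM, Aspm, of spindle poles, at 47.5 and 0.546 CPM, and Neil3, a DNA glycosylase, at 33.4 and 0.436 CPM. Mxd3, a MAX-binding factor, was at 31.7 and 0.109 CPM. Mb, Xirp2, Tcap, Apobec2, Pgam2 and Myl1, muscle genes, had at least 98.2% of their cycling UMIs in 2 barcodes. At the low end, Igkc, Igha and Jchain, antibody genes, had at least 99.7% of their non-cycling UMIs in 2 barcodes. Colec12, a scavenger collectin, had 3 UMIs in the cycling and 431 UMIs in the non-cycling set, a ratio of 0.027 (0.006 to 0.080). Mctp2, a membrane protein, had 0 UMIs in the cycling and 147 UMIs in 74 barcodes of the non-cycling set, at least 12.5-fold lower when 0 is read as up to 3 counts over the set.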

How the data were processed

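Skin cells of C57BL/6 mice were profiled in 1 pooled droplet library. The authors deposited whole-number UMI counts, not normalized, for 32285 genes in 8367 barcodes. They used Cell Ranger and mm10, per the submitters' processing notes, and its version and cell calling are not given in the sources used here. The hashtag library was not used here. No barcode was assigned to a condition and none was inferred.

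UMIs were added up over the 126 cycling and the 894 non-cycling barcodes. CPM have exact Poisson intervals, ratios exact conditional intervals and shares Clopper-Pearson intervals, all at 95%. Log2 ratios have 0.5 UMIs added to each count. A gene with 50 or more UMIs over both sets was measured, and 2-fold was the limit either way. An empty count was taken as 3 UMIs for bounds. Shares were also computed after thinning barcodes to 3000 UMIs without replacement (seed 1). Scrublet, in Scanpy 1.11.5 with 6% expected, marked 305 of 8127 barcodes as doublets, which were kept. The scripts ran on Python 3.11.15 with pandas 2.3.3, SciPy 1.17.1 and NumPy 2.4.6, and the ratios were tested on simulated data. Gene positions are from GENCODE and promoters from RefSeq, both on GRCm38, the assembly of mm10. RefSeq held a promoter for 97 of 117 mitosis and rule genes, 52 of 62 replication genes and 154 of 197 macrophage genes.

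The 15 cell cycle, 18 macrophage and 14 other cell type lists, and the members, were chosen with earlier results of these data known. The S6 kinase genes were taken out of the ribosomal list, which follows a name pattern, and 2 list symbols had no row. Named are the rule and gate genes, any gene of a list of up to 13, for longer lists the 4 highest in CPM and the 4 of largest log2 ratio, and outside the lists the 15 highest and 15 lowest log2 ratios. A gene of the lists is not reported here. Other genes are said to be chosen after their values were seen. The 15 planned and 3 added alternatives are in the closing section.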

Additional observations from a re-analysis of the deposited data

How the results depend on the processing

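Under 18 alternatives, 15 planned and 3 chosen after seeing the data, 289 genes were followed. Of these, 170 passed 2-fold either way, and 168 of the 170 kept their direction under every alternative. Past 2-fold under every alternative were 152, also where a gene had too few UMIs to count as measured. The 170 include the 4 rule genes, C1qa, C1qb and C1qc of the gate, and many cell cycle genes. The choice of members fixes much of their direction, so these counts support nothing further. No paired analysis was possible because the matrix is 1 pooled library whose columns carry no replicate number, and for the same reason no replicate could be left out. The cycling share, 12.4%, became 15.4% at 3 or more rule UMIs, 9.71% at 10 or more, 8.14% in barcodes of 8000 to 16000 UMIs, 8.93% with 10 gate UMIs per 10000 and 14.9% with 10 gate UMIs of Mrc1 and Adgre1 alone. Genes above 2-fold, 582, numbered 324 after thinning to 3000 UMIs and 244 with 200 or more UMIs per gene, and genes at 0.5-fold or lower, 628, numbered 1020 with 20 or more and 269 with 200 or more. Fewer genes were measured under these: replication genes above 2-fold were 26 of 33 after thinning and 33 of 39 with 200 or more UMIs, and mitosis genes 36 of 41 and 44 of 49, and 45 of 50 between 8000 and 16000 UMIs. Cox6a2 changed direction, to a log2 ratio of -2.36 without doublet calls, -1.41 at 8000 to 16000 UMIs, -1.87 without barcodes of other markers and -2.38 without the 3 barcodes rich in muscle or Igkc transcripts. Csf2, on 8 cycling UMIs, reversed to 1.47 at 8000 to 16000 UMIs, 0.56 after thinning and 0.23 with each barcode weighted alike. The cause was not tested. Some genes that passed no limit had a ratio on the other side of 1 at 8000 to 16000 UMIs. Among them were Il1b, H2-Ab1, H2-DMa, Psap, Myc, Cdkn1a, Foxo1, Btg1, Cxcl2, Ear2, Csf1, Dkc1, Ccng1 and Ccng2. C1qb, Txnip, Foxo3, Igf1r, Aldoa, Lgmn, Pf4, Tfrc, Il6, Jun, Ifit1 and Ifit3 came below 2-fold at 8000 to 16000 UMIs, and Blvrb, Ccl3, Il10 and Il7r under other alternatives. With a median of 9644 UMIs in non-cycling barcodes, a gene seen in few barcodes is limited by depth.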

Other observations

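Outside the macrophage gates, barcodes with at least 5 rule UMIs made up 94 of 2270 (4.14%, 3.36 to 5.04) of those that were neither macrophage-, fibroblast- nor keratinocyte-gated, at a median of 5022.5 UMIs. Of these, 80 failed the macrophage gate only on its UMI count, and 45 of those held 5 to 9 gate UMIs.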
